A study of Bos taurus with 13 samples.

Results

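The monocyte genes described here are *CD14*, *CSF1R*, *CD163*, *CD68*, *VCAN* and *CX3CR1*, a list of 6 gene names looked up in the count tables, and all 6 were found among the 16095 named genes. Counts came from whole blood of 13 lactating dairy cows of 1 commercial farm, named Italian Red Pied in the labels and Italian Simmental in the methods, all clinically healthy and past their first calving. The study ranked cows of the herd by the cortisol measured in their milk and took the upper and lower ends of that ranking. The high group here holds 7 cows (replicates 1 to 7) and the low group 6 cows (replicates 8 to 13). No cow was treated, the groups differ by a measured hormone and not by an intervention, and no milk cortisol value of a single cow was used here. Age was not used, and each library is 1 cow sampled once, so the spread given below is between cows and includes technical error.

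Monocytes are white blood cells made in the bone marrow that circulate, sense microbial products and enter tissues to become macrophages or some kinds of dendritic cell. Classical monocytes carry much *CD14*, while nonclassical monocytes, which patrol the vessel wall, carry more *CX3CR1* in the species where they are best described. Cortisol and related glucocorticoids are known to change the number of monocytes in blood and to raise the scavenger receptor *CD163* in monocytes in culture. In RNA from whole blood, fewer cells of a type and less RNA per cell cannot be told apart.

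All 6 genes passed the filter on low counts, with 493 to 15810 counts per cow, so that the counting error was at most 4.50% (for *VCAN* in its lowest cow) and the spread between cows was larger than this for every gene. Libraries held 12198355 to 23709740 named-gene reads among high cows and 11045599 to 28124575 among low cows. Values are given as CPM, which are counts scaled to a common library size after TMM normalization, and as RPKM, the same divided by the exon length in kilobases, which is the scale used to set one gene beside another. Beside the 6 genes, 14 of 22 other genes of monocytes and macrophages were found by name, and 13 passed the filter. *LYZ*, the antibacterial enzyme lysozyme of the myeloid cells, reached 1672 to 6791 CPM in a cow, so transcripts of the phagocyte lineage were present in each library. Whole blood also held neutrophils, T cells, B cells and other cells, and several of the 6 genes are known in some of these too.

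Per length, *CD68* was the most abundant of the 6 genes, with 280 RPKM ± 84.6 (SD, n = 13). It encodes a heavily glycosylated membrane protein of lysosomes and late endosomes, related to the LAMP proteins. *CSF1R*, the receptor tyrosine kinase that keeps monocytes and macrophages alive, followed with 94.6 RPKM ± 17.2 (SD, n = 13). *CX3CR1*, the receptor of the membrane-bound chemokine fractalkine, had 80.1 RPKM ± 18.9 (SD, n = 13). *CD14*, the coreceptor that hands bacterial lipopolysaccharide to TLR4, had 40.3 RPKM ± 10.6 (SD, n = 13). *CD163*, the receptor that clears complexes of haptoglobin and haemoglobin, had 28.0 RPKM ± 10.8 (SD, n = 13). *VCAN*, which encodes the large chondroitin sulfate proteoglycan versican, was lowest with 6.53 RPKM ± 2.58 (SD, n = 13).

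This order of levels per length held in 13 of 13 cows at every step but 1. *CSF1R* stood above *CX3CR1* in 9 of 13 cows only, with a ratio between 0.702 and 1.81, so these neighbours were not set apart beyond the spread between cows. The ranges of *CD68* and *CSF1R* over cows did not overlap, and neither did those of *CD163* and *VCAN*. The ranges of *CX3CR1* and *CD14* and those of *CD14* and *CD163* overlapped between cows, although the first of each pair was higher within each of the 13 cows. Levels of different genes rest on the gene models of the count tables, so a missing or extra exon there would shift a gene on this scale.

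**Figure D1:**
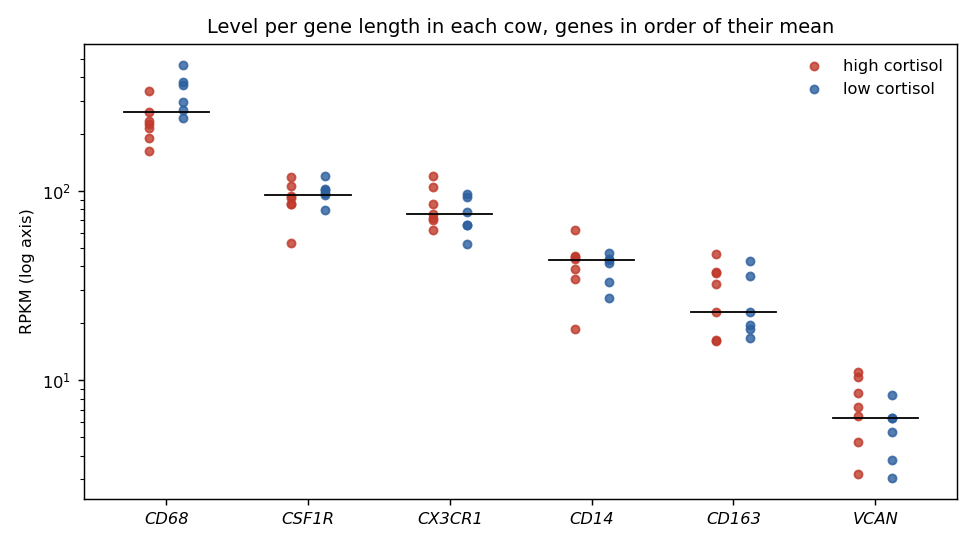
Level of each gene per length in each cow (RPKM, log axis), with the genes in order of their mean over 13 cows. Points are cows of the high (red) and low (blue) cortisol groups and the bar is the median over all cows; *CD68* lies above and *VCAN* below the other 5 genes.

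The genes differed in how much they varied between cows. *VCAN* and *CD163* varied most, with coefficients of variation of CPM of 39.5% and 38.6%, and 82.0% and 81.0% of all genes tested varied less. *CD68* had 30.2%, *CD14* 26.3% and *CX3CR1* 23.6%, while *CSF1R* had 18.2%, below the median of 21.3% over all genes tested. From the lowest to the highest cow the level changed 3.63-fold for *VCAN*, 3.34-fold for *CD14* and 2.26-fold for *CSF1R*. The extremes were shared by few cows. Replicate 7 of the high group had the lowest level of *CD14*, *CSF1R*, *CD163* and *CD68* of all 13 cows. It also had the highest share of haemoglobin transcripts, 0.815% of named-gene counts. Replicate 2 of the high group had the highest *CD14*, *CD163* and *VCAN*, and replicate 8 of the low group the highest *CSF1R* and *CD68*. Replicate 1 of the high group was highest for *CX3CR1*.

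The study's main question was whether blood transcripts differ between cows with high and low milk cortisol. Of the 6 monocyte genes, 0 reached an adjusted p of 0.05 in edgeR's quasi-likelihood test, DESeq2 or limma-voom, and edgeR called 0% of the 11033 genes tested. In each of these 3 tests 1 of the 6, *CD68*, had an unadjusted p below 0.05 and was lower in the high group, while edgeR gave 2.09% of all genes in either direction and 1.16% lower in the high group. The groups overlapped for all 6 genes, and over all genes tested 0.0272% had groups that did not overlap. The median log2 fold change of the 6 genes was 0.11, beside 0.01 over all genes tested, with 4 of the 6 higher and 2 lower in the high group.

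**Figure D2:**
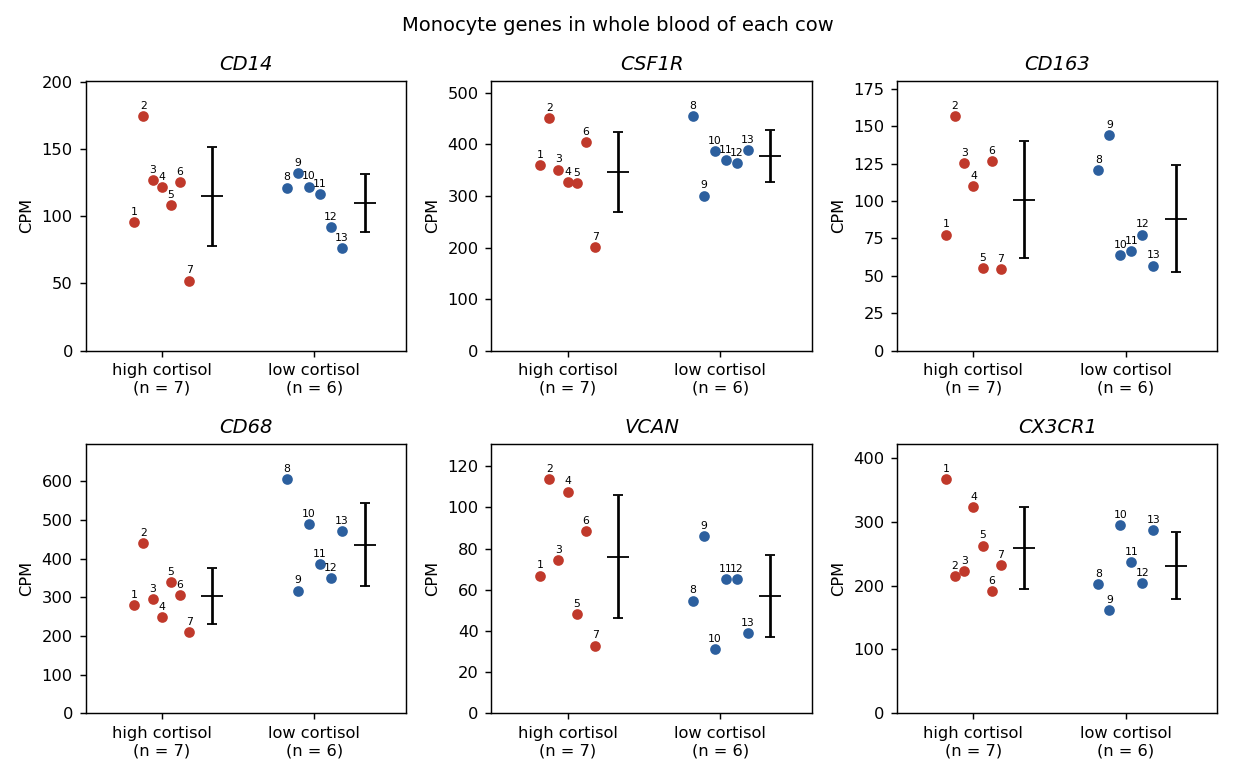
CPM of the 6 genes in each cow of the high (red, n = 7) and low (blue, n = 6) cortisol groups; small numbers are the replicates, and the black line with its bar gives the mean ± SD. The groups overlap in each panel, and for *CD68* 5 of the 7 high cows lie below all low cows.

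*CD68* lies on chromosome 19 of the UMD3.1 build, from 27921927 to 27923997 on the plus strand, with 1303 exonic bases. In the high group it had 211 CPM in the lowest cow, 296 CPM at the median and 440 CPM in the highest, and in the low group 317, 428 and 606 CPM. Thus 5 of 7 high cows lay below every low cow and 3 of 6 low cows above every high cow, while replicate 2 of the high group reached into the middle of the low group. High cows averaged 303 CPM ± 73.0 (SD, n = 7) and low cows 436 CPM ± 106 (SD, n = 6). The log2 fold change was -0.53 (standard error 0.17, 95% interval -0.89 to -0.16), a level in the high group of 0.695 times that in the low group. The unadjusted p was 0.00748 and the adjusted p 0.998 by edgeR's quasi-likelihood test, and an exact permutation test of log2 CPM, two-sided over every division into 7 and 6 cows, gave 0.0186. The unadjusted p stayed below 0.05 in 13 of 13 fits that left out 1 cow, with log2 fold changes from -0.63 to -0.40. The study itself counted *CD68* among its differing genes, called with DESeq2 at a corrected p of 0.05. It describes more cows than the 13 used here, and its animals overlap with the present ones, so the direction is not independent evidence. DESeq2 on these 13 cows gave *CD68* an unadjusted p of 0.00447 and an adjusted p of 0.9999, so the call was not repeated here.

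Haemoglobin transcripts tended to be more abundant in cows with less *CD68*. The share was taken from *HBB*, *HBG*, *HBM* and *HBQ1* over all named-gene counts. *HBA* was not found by name, so the share covers only a part of the haemoglobin transcripts. It was 0.0282% to 0.815% in the high group (median 0.118%) and 0.0114% to 0.0552% in the low group (median 0.0289%). Across the 13 cows, log2 CPM of *CD68* and the log2 haemoglobin share had a Pearson r of -0.71 (permutation p 0.00581, 0.0205 adjusted over the 6 genes) and a Spearman rho of -0.70 (permutation p 0.00940, adjusted 0.0564). The r was -0.65 without the 2 cows with the most extreme haemoglobin shares, -0.58 within the high group and -0.49 within the low group. With the haemoglobin share as a covariate the log2 fold change of *CD68* was -0.25, with an unadjusted p of 0.237 in edgeR's test. The values of all 6 genes were higher with this covariate, at 0.31 for *CD14*, 0.19 for *CSF1R*, 0.44 for *CD163*, 0.69 for *VCAN* (unadjusted p 0.0517) and 0.37 for *CX3CR1* (unadjusted p 0.0938), so the shift was not limited to *CD68*. Whether haemoglobin had a part in these differences was not tested. For *CSF1R* the r was -0.73 (permutation p 0.00683, adjusted 0.0205) and the rho -0.61 (permutation p 0.0303, adjusted 0.0909). The r was -0.32 without the 2 most extreme cows, so its size depends on them, although their removal also narrows the range of the share. The other 4 genes had r between -0.33 and -0.08 with the haemoglobin share, and adjusted permutation p of 0.545 or more. For 3 of them the groups had opposite signs, with r of -0.69 in the high and 0.75 in the low group for *CD14*, -0.76 and 0.68 for *VCAN*, and -0.60 and 0.44 for *CD163*, and without the 2 most extreme cows their pooled r was 0.47, 0.60 and 0.53.

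Neutrophils are the other myeloid cells that are plentiful in blood, and of the 14 neutrophil genes looked up 10 were found and 9 passed the filter. Among them 5 were higher and 4 lower in the high group. At an unadjusted p below 0.05 by edgeR's test 2 were lower, beside 1.16% of all genes tested. These were *CSF3R* with a log2 fold change of -0.45 and *S100A9* with -0.44 (adjusted p 0.998 for both). The summed level of the list was 4003 to 8295 CPM in the high group and 6248 to 8734 CPM in the low group. The receptors *CXCR1* and *CXCR2* and the granule genes *LTF* and *CAMP* were not found by name. With the mean log2 level of the neutrophil genes as a covariate, *CD68* had a log2 fold change of -0.49 (unadjusted p 0.0106, edgeR). This mean level weighs each gene alike, from *ELANE* with 2.98 to 15.3 CPM to *CSF3R* with 2108 to 6101 CPM. *CSF3R* alone had r = 0.96 with *CD68*, so the mean level cannot stand for the number of neutrophils. The mean level had r = 0.37 and rho = 0.35 with *CD68* (permutation p 0.210 and 0.239, adjusted 0.464 and 0.528 over 42 relations of this kind). *CD14* had r = 0.68 with the mean level, and its log2 fold change went from 0.06 to 0.12 with the same covariate. Whether neutrophils had a part in the difference of *CD68* was not tested.

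*VCAN* lies on chromosome 7 from 85666058 to 85782896 on the plus strand of UMD3.1, with 10291 exonic bases, and marks classical monocytes. It had 32.9 CPM in the lowest high cow, 74.6 CPM at the median and 114 CPM in the highest, beside 31.3, 59.9 and 86.2 CPM in the low group. The lowest cows of both groups were at about the same level, and replicates 2, 4 and 6 of the high group lay above all low cows. The log2 fold change was 0.42 (standard error 0.27, 95% interval -0.16 to 1.00), with an unadjusted p of 0.146 and an adjusted p of 0.998 (edgeR) and an exact permutation p of 0.262. Without replicate 7 of the high group the unadjusted p was 0.0383, with a log2 fold change of 0.55 (edgeR, adjusted p 0.999).

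*CD163* lies on chromosome 5 from 102245937 to 102278444 on the plus strand, with 3390 exonic bases. The high group had 54.6 CPM in its lowest cow, 110 CPM at the median and 157 CPM in its highest, and the low group 56.9, 72.0 and 144 CPM. Both groups held cows near 60 CPM and cows above 120 CPM. The log2 fold change was 0.19 (standard error 0.27, 95% interval -0.39 to 0.77), with an unadjusted p of 0.491 (edgeR, adjusted 0.998) and an exact permutation p of 0.575. As a ratio of high to low this interval runs from 0.765 to 1.71.

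*CD14* lies on chromosome 7 from 53446106 to 53448979 on the minus strand, with 2790 exonic bases. Its range in the low group, 76.1 to 132 CPM with a median of 119 CPM, lay inside that of the high group, 52.1 to 174 CPM with a median of 122 CPM. The log2 fold change was 0.06 (standard error 0.21, 95% interval -0.37 to 0.50), with an unadjusted p of 0.765 (edgeR, adjusted 0.998) and an exact permutation p of 0.967. Its sign turned in 2 of the 13 fits without 1 cow, as given in the closing part, so no direction was found.

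*CSF1R* lies on the same chromosome from 63379475 to 63410973, on the minus strand, with 3812 exonic bases. It had 202 CPM in the lowest high cow, 351 CPM at the median and 451 CPM in the highest, and 301, 378 and 455 CPM in the low group. Apart from replicate 7 of the high group all cows lay between 301 and 455 CPM. The log2 fold change was -0.13 (standard error 0.15, 95% interval -0.44 to 0.19), with an unadjusted p of 0.413 (edgeR, adjusted 0.998) and an exact permutation p of 0.436. Leaving out replicate 7 of the high group gave -0.03, and the value turned to 0.19 with the haemoglobin share as a covariate (unadjusted p 0.239, edgeR).

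*CX3CR1* lies on chromosome 22 from 12613418 to 12627354 on the minus strand, with 3069 exonic bases, and is also known on natural killer cells and some T cells. The high group had 191 CPM in its lowest cow, 231 CPM at the median and 367 CPM in its highest, and the low group 162, 220 and 295 CPM. Only replicates 1 and 4 of the high group lay above all low cows. The log2 fold change was 0.16 (standard error 0.17, 95% interval -0.20 to 0.52), with an unadjusted p of 0.349 (edgeR, adjusted 0.998) and an exact permutation p of 0.406.

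**Figure D3:**
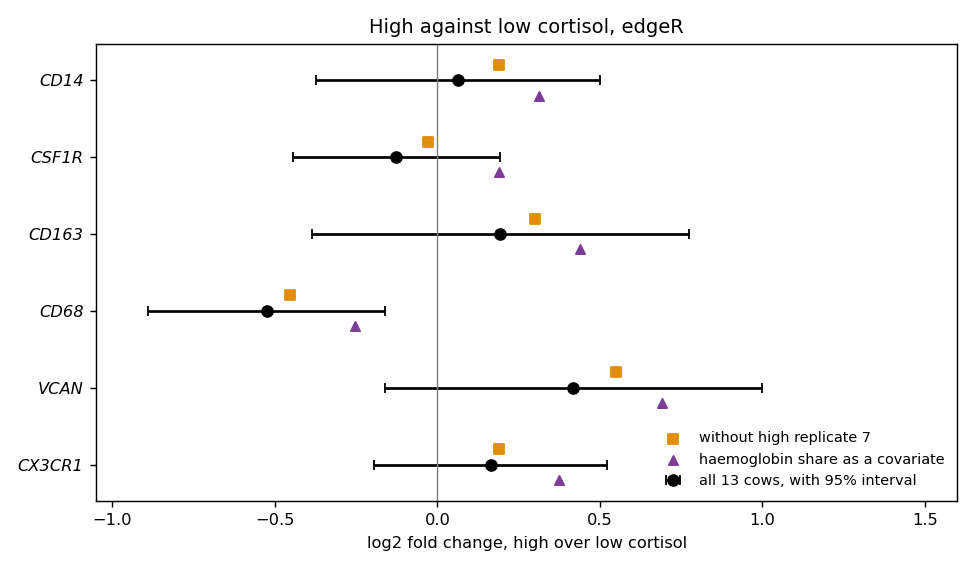
Log2 fold change of each gene, high over low cortisol, from edgeR over 13 cows with its 95% interval (black), without replicate 7 of the high group (orange squares) and with the haemoglobin share as a covariate (purple triangles). The interval excludes 0 for *CD68* alone, and with the covariate all 6 values lie further to the right, that of *CD68* at -0.25 and that of *CSF1R* at 0.19.

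Within a cow, ratios between genes do not depend on the depth of the library. The ratio of *CD68* to *CSF1R* in RPKM was 2.22 to 3.06 in the high group (median 2.47) and 2.82 to 3.90 in the low group (median 3.31). In 4 of 7 high cows it was below that of all low cows, and in 4 of 6 low cows above that of all high cows. The ratio of *CX3CR1* to *CSF1R* was 0.585 to 1.43 in the high group (median 1.00) and 0.553 to 0.947 in the low group (median 0.745), with 4 high cows above all low cows. These ratios were formed after the levels had been seen and were not tested. The ratio of *CD163* to *CD14* was 0.422 to 0.862 in the high group (median 0.745) and 0.429 to 0.899 in the low group (median 0.655), so the groups covered the same range.

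Across the 13 cows the 6 genes did not vary as 1 set. Of their 15 pairs, 9 had a positive correlation of log2 CPM and 6 a negative one. By Pearson's r, 4 pairs passed an adjusted permutation p of 0.05, and 3 of these also passed by Spearman's rho. The pairs that passed joined *CD14*, *CD163* and *VCAN* to each other and *CSF1R* to *CD68*. *CX3CR1* had a negative r with each of the other 5 genes, from -0.51 with *CD163* to -0.01 with *CSF1R*, and none of these passed. Within the low group its r was positive with *CSF1R* (0.47) and *CD68* (0.49).

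*CD163* and *VCAN* were the most alike, with r = 0.81 (permutation p 0.00085, 0.00600 adjusted over the 15 pairs) and rho = 0.84 (permutation p 0.00067, adjusted 0.00547). The r was 0.90 within the high group, 0.68 within the low group and 0.75 without the 2 cows farthest from the median of *CD163*. Among all 11032 other genes tested, *VCAN* ranked 16th by r with *CD163*, and *CD163* 17th by r with *VCAN*. *CD14* and *CD163* had r = 0.74 (permutation p 0.00082, adjusted 0.00600) and rho = 0.83 (permutation p 0.00073, adjusted 0.00547), with 0.82 within the high group, 0.62 within the low group and 0.68 without the 2 farthest cows. *CD14* and *VCAN* had r = 0.68 (permutation p 0.00837, adjusted 0.0314) and rho = 0.66 (permutation p 0.0157, adjusted 0.0589). That r was 0.89 within the high group, 0.32 within the low group and 0.44 without the 2 farthest cows, so it rests on those cows.

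*CSF1R* and *CD68* had r = 0.77 (permutation p 0.00120, adjusted 0.00600) and rho = 0.73 (permutation p 0.00599, adjusted 0.0299). The r was high in both groups, 0.82 in the high group and 0.93 in the low group. It was 0.58 without the 2 cows farthest from the median of *CSF1R*, and 0.71 with an adjusted permutation p of 0.0539 without replicate 7 of the high group. *CD14* and *CSF1R* had r = 0.68 but rho = 0.23 (permutation p 0.0225 and 0.459, adjusted 0.0674 and 0.689), and without replicate 7 of the high group the r was 0.21. No relation was found between *CD163* and *CD68*, with r = 0.07 and rho = 0.04 (permutation p 0.824 and 0.890, adjusted 0.883 and 0.890).

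**Figure D4:**
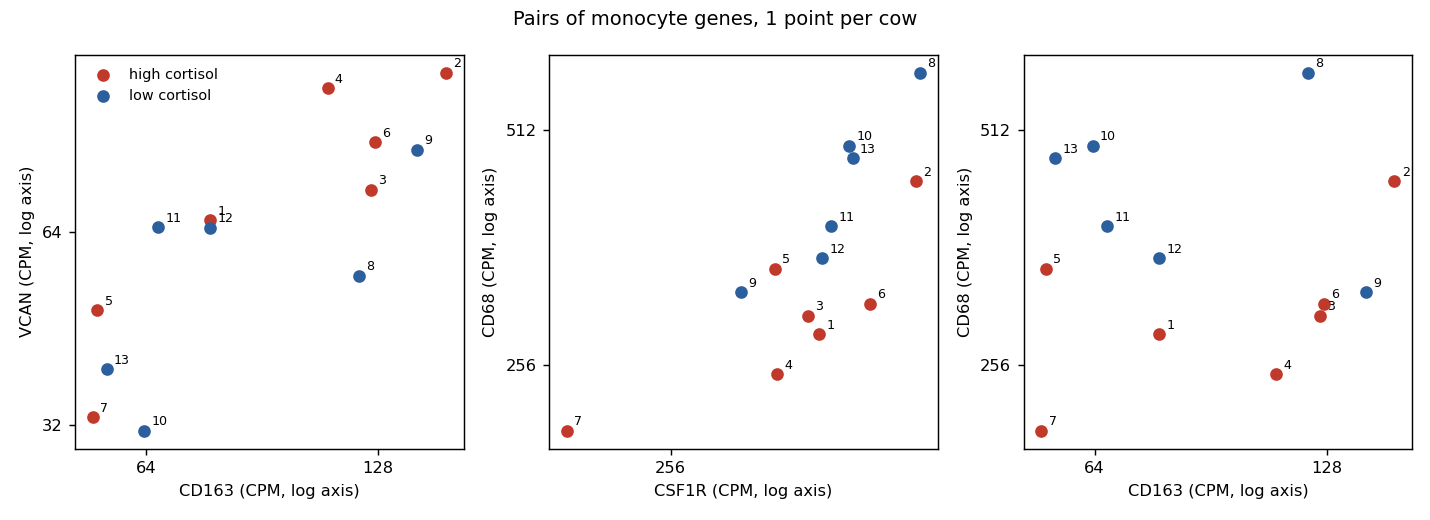
*VCAN* against *CD163*, *CD68* against *CSF1R*, and *CD68* against *CD163*, in CPM on log axes, with 1 point for each cow of the high (red) and low (blue) cortisol groups and its replicate number. The first and second pairs rise together (r = 0.81 and 0.77), and the last does not (r = 0.07).

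Several pairs had unlike correlations in the 2 groups. Within the high group the 10 pairs without *CX3CR1* all had positive r, from 0.52 to 0.94. Within the low group 6 of the same 10 pairs had negative r, among them *CSF1R* and *VCAN* with -0.55 against 0.84 in the high group, and *CD68* and *VCAN* with -0.66 against 0.54. *CX3CR1* had r of -0.90 with *CD163* and -0.91 with *VCAN* in the low group, against -0.35 and -0.02 in the high group. The difference between groups was not tested, and with 7 and 6 cows 1 animal can set such a value. Replicate 7, which was low for 5 of the 6 genes, belongs to the high group.

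**Figure D5:**
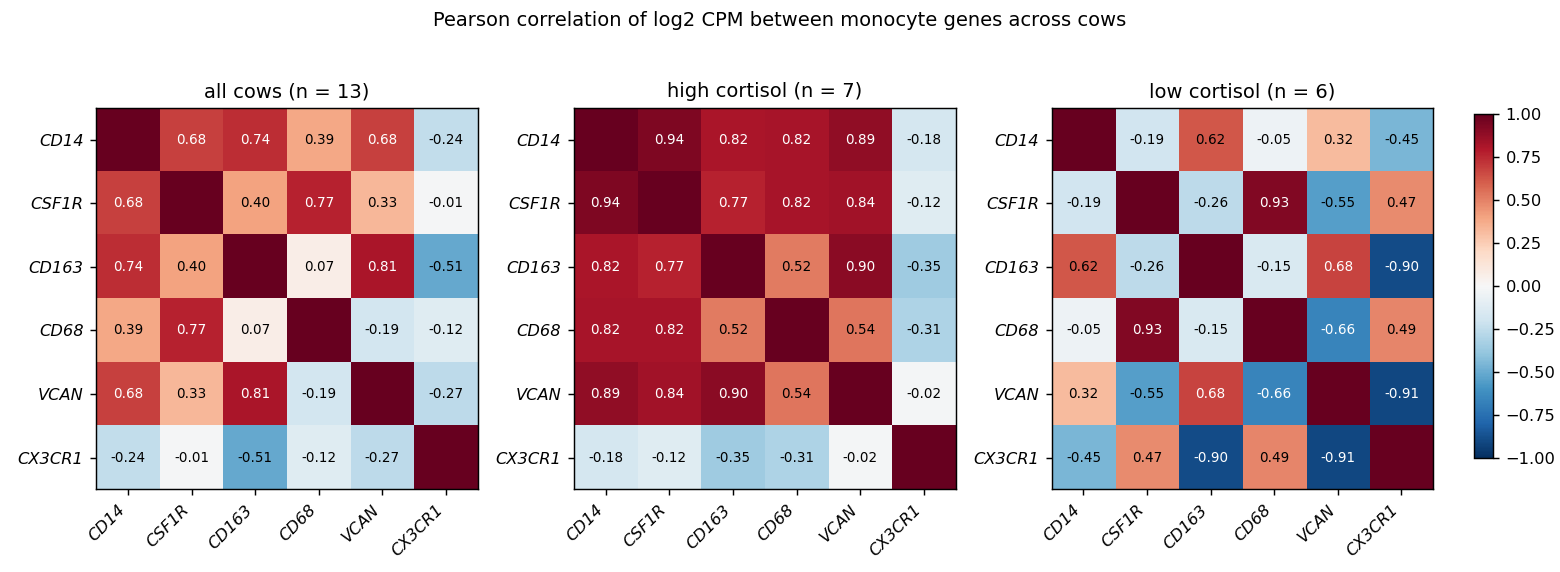
Pearson r of log2 CPM between the 6 genes over all 13 cows, over the 7 high cows and over the 6 low cows, with red for positive and blue for negative values. The 5 genes other than *CX3CR1* have positive r with each other in the high cows. In the low cows *CSF1R* and *CD68* (0.93 with each other) have r from -0.66 to -0.15 with *CD163* and *VCAN* (0.68 with each other). The difference between groups was not tested.

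The genes most like each of the 6 were named as the 5 with the largest r over the 13 cows among all genes tested. For *CD68* these were *SELPLG*, which encodes the P-selectin ligand of leukocytes (r = 0.97), *CSF3R*, the receptor of the neutrophil growth factor G-CSF (0.96), *SLC13A5*, *TBC1D10B* and *LRP10*. The r of *CD68* with *CSF3R* was 0.93 within the high group and 0.96 within the low group, and with *SELPLG* 0.91 and 0.99. *CSF3R* had 2108 to 4676 CPM in the high group (median 2970) and 3024 to 6101 CPM in the low group (median 3799), with an unadjusted p of 0.0324 and an adjusted p of 0.998 by edgeR. *SELPLG* had 787 to 1389 CPM in the high group (median 1120) and 1067 to 1996 CPM in the low group (median 1398), a log2 fold change of -0.48 (unadjusted p 0.0103, adjusted p 0.998, edgeR). *SELPLG* is named only for its likeness to *CD68*, while *CSF3R* was also in the neutrophil list given above. Both vary with *CD68* over these same cows. Their lower medians in the high group and their p-values are thus not independent of the values of *CD68*. The other neutrophil genes had a lower r with *CD68*, from -0.33 for *FFAR2* to 0.60 for *MMP9* (0.61 within the high and 0.19 within the low group). It was 0.48 for *S100A9* (0.72 within the high and -0.87 within the low group) and 0.42 for *ELANE* (0.41 and 0.80). For *S100A8* it was -0.24 (-0.19 and -0.54).

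For *CSF1R* the most alike genes were *EMILIN2* (r = 0.91), *TBC1D8* (0.90), *SPATA6*, *CMIP* and *ETV6*. *CD68* ranked 81st among 11032 genes for *CSF1R*, and *CSF1R* 253rd for *CD68*. For *CD163* they were *GLUL*, the glutamine synthetase gene (0.91), *LSM14A*, the clotting factor gene *F5*, the lysosomal activator gene *GM2A* and *ITSN1*. For *VCAN* they were *IFNGR1*, a chain of the interferon gamma receptor (0.89), *RNASE6*, *ACVR1*, *UPRT* and *XG*. For *CD14* they were *PAPSS1* (0.89), *ANXA5* (0.89), *MAOA*, *SCIN* and *PAM*. For *CX3CR1* they were *RFESD* (0.80), *VASH1*, *CHST7*, *STARD8* and *GZMA*, a granzyme of cytotoxic lymphocytes (0.76). The likeness is weakest for *CX3CR1*, whose leading genes were also low, between 1.61 and 14.8 CPM on average. *CD163* ranked 10874th of 11032 for *CX3CR1*.

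The 6 genes were also set against the mean log2 level of 7 lists of blood cell genes, 42 relations in all, which were computed with the levels of the genes known. *CD14* followed the other monocyte and macrophage genes, with r = 0.81 (permutation p 0.00077, adjusted 0.0323), rho = 0.75 (permutation p 0.00420, adjusted 0.0853) and 0.51 without the 2 farthest cows. *VCAN* had r = 0.78 with the same list (permutation p 0.00166, adjusted 0.0349) and rho = 0.85 (permutation p 0.00051, adjusted 0.0214), with 0.93 within the high group, 0.48 within the low group and 0.85 without the 2 farthest cows. *CD163* had r = 0.71 and rho = 0.73 (permutation p 0.00655 and 0.00609, adjusted 0.0917 and 0.0853). *CSF1R* had r = 0.35 and rho = -0.01 (permutation p 0.237 and 0.993, adjusted 0.474 and 0.993). For *CD68* the values with this list were r = -0.07 and rho = -0.26 (permutation p 0.811 and 0.393, adjusted 0.920 and 0.666), and for *CX3CR1* r = 0.02 and rho = -0.03 (permutation p 0.946 and 0.920, adjusted 0.980 and 0.982). With the list of cytotoxic and NK cell genes, *CX3CR1* had r = 0.47 and rho = 0.42 (permutation p 0.110 and 0.154, adjusted 0.271 and 0.429). Relations with other lists were nearly as large, although they did not pass. With the neutrophil genes *CD14* had r = 0.68 and rho = 0.57 (permutation p 0.00888 and 0.0471, adjusted 0.0932 and 0.283) and *CD163* r = 0.65 and rho = 0.60 (permutation p 0.0175 and 0.0326, adjusted 0.123 and 0.252). With the dendritic cell genes *CD14* had r = 0.63 and rho = 0.69 (permutation p 0.0158 and 0.0106, adjusted 0.123 and 0.111). Of the 42 relations, those of *CD14* and *VCAN* with the phagocyte list passed by r, and whether they differ from the relations with the other lists was not tested.

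The partners of these genes were looked up as 7 lists of 88 genes, of which 73 were found by name and 61 passed the filter. Unadjusted p-values from edgeR's test were all above 0.05 for these 61 genes, with 0 below it (smallest 0.0954), beside 2.09% of all genes tested. Around *CD14*, 2 of 11 genes of the lipopolysaccharide receptor were higher in the high group and 9 lower, with a median log2 fold change of -0.02. The receptor *TLR4* had -0.35 (standard error 0.20) and its partner *LY96* 0.48 (standard error 0.36). The serum protein gene *LBP* had at most 9 counts in a cow and was below the filter.

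Around *CSF1R*, 6 of 10 genes were higher and 4 lower, with a median of 0.09. The ligand gene *CSF1* averaged 7.93 CPM ± 4.25 (SD, n = 7) among high cows and 13.5 CPM ± 11.8 (SD, n = 6) among low cows, or -0.77 on the log2 scale (standard error 0.48). The other ligand gene, *IL34*, had at most 10 counts in a cow. *SPI1*, which encodes the myeloid transcription factor PU.1, had -0.19 (standard error 0.17), and *IRF8*, a transcription factor of the monocyte and dendritic cell lineage, had 0.14 (standard error 0.11).

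Around *CD163*, 4 of 7 genes of haem handling were higher and 3 lower, with a median of 0.02. *HMOX1*, the haem oxygenase that breaks down haem, had -0.01 (standard error 0.17), the biliverdin reductase gene *BLVRB* 0.15 (standard error 0.14) and the iron exporter gene *SLC40A1* -0.13 (standard error 0.20). Around *CX3CR1*, 3 of 6 were higher and 3 lower, with a median of -0.05, and the ligand gene *CX3CL1* had at most 3 counts in a cow, so it was hardly detected in blood at this depth. The sheddase gene *ADAM10* had 0.25 (standard error 0.21) and the arrestin gene *ARRB2* -0.18 (standard error 0.14). *NR4A1*, a nuclear receptor needed for nonclassical monocytes in mice, had -0.27 (standard error 0.22), and the chemokine receptor *CCR2* of classical monocytes 0.14 (standard error 0.22).

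Around *VCAN*, 4 of 10 genes passed the filter, of which 1 was higher and 3 were lower, with a median of -0.11. *TNFAIP6*, a hyaluronan-binding protein, had 0.82 (standard error 0.50). The versican-cleaving proteases *ADAMTS1*, *ADAMTS4*, *ADAMTS9* and *ADAMTS15* had at most 15 counts in a cow, and *ADAMTS5* had 0 in all cows. Of 10 lysosomal genes around *CD68*, 1 was higher and 9 were lower in the high group, with a median of -0.06, a smaller shift than the -0.53 of *CD68* itself. *LAMP1* had -0.13 (standard error 0.14), the protease genes *CTSD* -0.11 (standard error 0.14) and *CTSB* -0.06 (standard error 0.16), and *LAMP3* 0.09 (standard error 0.11). Of the 13 other monocyte and macrophage genes, 9 were higher and 4 lower, with a median of 0.06. The mannose receptor gene *MRC1* had 0.73 (standard error 0.41), the scavenger receptor gene *MSR1* 0.40 (standard error 0.24) and *LYZ* 0.29 (standard error 0.32). These partner genes are thus given as values without a called direction.

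Genes of other blood cells were counted in the same fit, where the median log2 fold change over all genes tested was 0.01. Genes of a list were measured in the same cows and can vary together. Counts of direction within a list are thus not independent, and differences in cell numbers were not tested. Of the T cell genes 1 of 8 was higher in the high group, of the B cell genes 6 of 7, of the cytotoxic and NK cell genes 6 of 6 (median log2 fold change 0.22), of the dendritic cell genes 6 of 6 (median 0.14), of the eosinophil genes 2 of 2 and of the platelet genes 0 of 6 (median -0.42), with 0 at an unadjusted p below 0.05 in each of these lists (edgeR). Of 3 erythroid genes tested all were higher, 2 of them at an unadjusted p below 0.05 (edgeR), beside 2.09% of all genes tested in either direction. These were *HBB*, whose reads may be shared with similar haemoglobin genes, with a log2 fold change of 2.68, and *ALAS2*, an enzyme of haem synthesis, with 1.21 (adjusted p 0.998 for both). *HBB* varied widely, with 2047 CPM ± 2542 (SD, n = 7) among high cows and 320 CPM ± 142 (SD, n = 6) among low cows. The summed level of the 6 monocyte genes was 783 to 1550 CPM in the high group (median 1238) and 1142 to 1560 CPM in the low group (median 1280), so the groups shared the upper part of their range. The largest parts of this sum are *CD68*, *CSF1R* and *CX3CR1* (365, 360 and 246 CPM on average). Their relations with the other monocyte and macrophage genes did not pass, so the sum is not a measure of monocytes.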

How the data were processed

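Gene counts of 13 whole blood libraries were analysed, 7 of the high and 6 of the low milk cortisol group, with groups taken from the labels. RNA was kept in PAXgene tubes and sequenced without globin depletion. The authors deposited counts, whole numbers of reads per gene name, not normalized. Per the file headers, featureCounts 1.4.6-p3 summed exons under their gene name from Ensembl models on UMD3.1, with no option for strand or for reads that map to several places. The methods and the processing notes name STAR 2.7.3, Subread 1.6.5 and ARS-UCD1.2 instead, and this was not resolved. The alignments named in the headers carry animal numbers unlike those of the tables and a folder name that includes goat, although the labels give cattle. Positions are those of the tables, on UMD3.1, and no named gene overlaps the span of any of the 6 genes there. Genes without a name share 1 entry with 13.9% to 16.7% of the counts of a cow, which was left out. Identical libraries were looked for and 0 pairs were found.

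TMM factors, CPM, RPKM (with the exon length of the tables) and log2 CPM (prior count 2) were computed with edgeR 4.0.16 in R 4.3.3. Groups were compared by edgeR's quasi-likelihood test (robust, no covariate) over the 11033 genes passing filterByExpr (minimum count 10, minimum total 15), with Benjamini-Hochberg adjustment over all of them. Standard errors were taken as the fitted log2 fold change over the root of its F statistic. Exact two-sided permutation tests of log2 CPM ran over every division into 7 and 6 cows, with a smallest possible p of 0.000583. Correlation p came from 100000 resamples in scipy 1.17.1, two-sided. Intervals are 95% intervals of the log2 fold change between groups, and the counting error is the root of a count over that count. The code was tested on simulated counts with 200 changed genes. Alternatives were DESeq2 1.42.0, limma-voom (limma 3.58.1), RLE and upper-quartile factors, no TMM factors and a prior count of 0.5 (levels and correlations), no filter, a minimum of 10 counts in every cow, removal of haemoglobin genes, the haemoglobin share or the neutrophil level as a covariate, a non-robust fit, deviations from the group means, and each cow left out. A fit with the haemoglobin covariate and without replicate 7 of the high group was added after the values were seen. The members, the lists and the tests were chosen with earlier results of these data known. Named genes are the 6 genes, the 5 most alike to each, and in each list of partners the gene with the smallest p in each direction, some of which are not reported here. *SPI1*, *HMOX1*, *NR4A1*, *CCR2*, *LAMP1*, *CTSB*, *CTSD*, *MSR1* and *LYZ* were named for their role after their values were seen, as were the genes of other cell types that are named. No sequence is shown, and promoters were not searched for motifs.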

Additional observations from a re-analysis of the deposited data

How the results depend on the processing

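*CD163*, *CD68*, *VCAN* and *CX3CR1* kept their direction in all 24 alternative fits of the comparison between groups, and in each of them 0 of the 6 monocyte genes reached an adjusted p of 0.05 (smallest 0.893, without replicate 5 of the high group). *CSF1R* turned from -0.13 to 0.19 with the haemoglobin share as a covariate, and to 0.11 when replicate 7 of the high group was also left out, a fit added after the values were seen, in which *CD68* had -0.29 (unadjusted p 0.201, edgeR). *CD14* turned to -0.064 without replicate 2 of the high group and to -0.024 without replicate 13 of the low group (range -0.064 to 0.19 over the 13 fits without 1 cow). Over the same 13 fits *CD163* ranged from 0.06 (without replicate 2 of the high group) to 0.39 (without replicate 9 of the low group), *CX3CR1* from 0.06 (without replicate 1 of the high group) to 0.25 (without replicate 10 of the low group), *VCAN* from 0.30 to 0.57 and *CSF1R* from -0.20 to -0.03. The cause of these changes was not tested. Of the 6 monocyte genes, 1 had an unadjusted p below 0.05, and 0 had with the haemoglobin covariate, with or without replicate 7, and ranged from 1 to 2 with 1 cow left out. Over all genes, 231 had an unadjusted p below 0.05, of 11033 tested. The number was 348 of 14346 with DESeq2, which also applied another filter and called 1 gene by the adjusted p where edgeR called 0, 414 of 14377 without a filter on low counts, 120 with the haemoglobin covariate and 103 with that covariate and without replicate 7 of the high group. Leaving out 1 cow gave 191 to 373, with the largest numbers without replicate 2 (373) or replicate 5 (363) of the high group. The 4 correlated pairs were 2 to 5 with 1 cow left out, with 2 (*CD14* and *CD163*, *CD163* and *VCAN*) without replicate 7 of the high group, and 5 with deviations from the group means. *CD14* and *VCAN* no longer passed in 4 of these 13 settings, when replicate 2, 6 or 7 (high) or 13 (low) was absent. No paired analysis was possible because the groups share no replicate numbers. With 13 cows, the width of the intervals and not the depth limits the comparison.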
